A study of Homo sapiens with 2 samples.

Results

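The genes encoding the protein part of the mitochondrial ribosome were taken from the 2 libraries by symbol: MRPL for the large subunit or MRPS for the small subunit, followed by a number and, for 3 genes, a letter from A to C. This gave 77 of 25343 gene entries, 48 MRPL and 29 MRPS genes. The RNA came from Huh7 cells, an established line from a well differentiated human hepatocellular carcinoma. Plating was at 500000 cells per well, and from the next day the medium held glucose at either 4.5 g/L (called high glucose here) or 0.45 g/L (called low glucose) over a period of 6 days. Both arms were split near confluence, carrying on live cells alone, and whether wells were pooled for RNA was not stated. The line was grown in DMEM with 10% FBS, per the labels. Neither arm carried a further agent or genetic change, per the labels. Each medium is represented by 1 library, so no comparison below has a replicate check and no p-value is given.

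The mitochondrial ribosome translates the few messenger RNAs encoded by mitochondrial DNA, all of which specify membrane subunits of the respiratory chain and the ATP synthase. Its RNAs are made inside the organelle, while every one of its proteins is encoded in the nucleus, made in the cytosol and imported. The small subunit binds and decodes the messenger RNA, and the large subunit forms peptide bonds and releases the chain next to the inner membrane. Many of its proteins have counterparts in bacterial ribosomes, and the rest were gained in the mitochondrial lineage. In liver, an organ rich in mitochondria, this machinery serves oxidative metabolism.

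All 77 genes were well above the level needed for comparison, a mean of at least 1 TPM over both libraries. TPM is a measure of transcript abundance corrected for transcript length that sums to 1000000 in each library. The genes were lower in low glucose as a group, by small amounts. Of the 77 genes, 69 had a negative difference, against 45.3% of the 13745 genes compared. Differences are given throughout as log2(TPM + 1) in low glucose minus the same in high glucose, and where a pair of TPM values is given, high glucose comes first. The median difference was -0.27 over the members, with a lowest value of -0.84 and a highest of 0.27, against a median of 0.05 over all genes compared. The quartiles of the members were -0.43 and -0.11, and those of all genes compared -0.23 and 0.35. In bulk RNA, a smaller share of cells expressing a gene and less RNA per cell cannot be told apart.

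None of the members differed by 2-fold, a size reached by 1.10% of all genes compared toward lower and 3.65% toward higher values. By a 1.5-fold rule, a difference of at least 0.585 in size, 8 members (10.4%) were lower and 0 were higher, while 6.07% of all genes compared were lower and 13.0% higher. At a smaller ratio of 5 to 4, 26 members were lower and 0 higher, while 18.3% of all genes compared were lower and 27.1% higher. The summed TPM of the members was 7762 in high and 6396 in low glucose, a ratio of 0.824. Over all genes compared, the difference was lower at higher abundance, and genes in the members' own range of mean TPM (7461 other genes) had a median difference of -0.023, with 52.2% below 0. After the median of genes of like level was subtracted, the members' median was -0.17 and 61 of 77 were below 0, with MRPL50 and MRPL49 alone still past 1.5-fold. The intervals of 16 members overlap another entry, whose reads the counting may not separate. They are MRPL3, MRPL9, MRPL13, MRPL20, MRPL43, MRPL49, MRPL57, MRPS6, MRPS7, MRPS9, MRPS12, MRPS16, MRPS18B, MRPS18C, MRPS24 and MRPS25. The other 61 members had a median of -0.27, with 54 below 0.

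**Figure D1:**
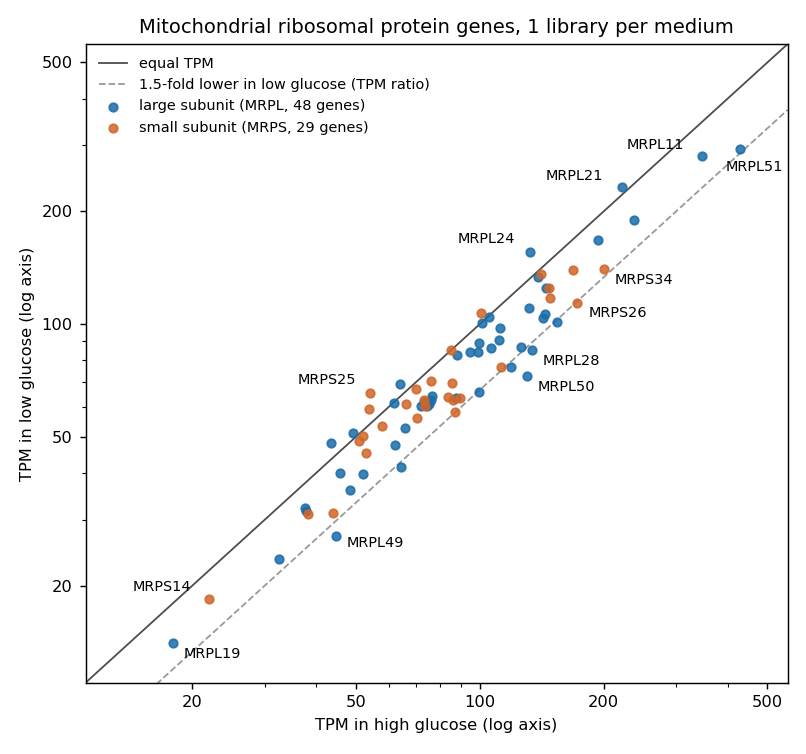
TPM of the 77 genes in the high glucose library (horizontal, log axis) against the low glucose library (vertical, log axis), 1 point per gene, coloured by subunit, with a line of equal TPM and a dashed line 1.5-fold below it. Most points lie between the lines, with 69 of 77 genes below equality and 8 past the dashed line.

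The abundance of the members spanned a 23.8-fold range in high glucose and a 20.9-fold range in low glucose. MRPL51 was the most abundant member in both media, at 428 TPM with high and 293 TPM with low glucose. MRPL11 was the next, at 347 and 281 TPM, and MRPL19, a protein shared with bacteria, was the least abundant at 17.97 and 14.0 TPM. The order of the genes was nearly the same in both libraries (Spearman rho = 0.949 over 77 genes, which share the 2 libraries and are not replicates). At least 100 TPM were reached by 29 members in high and 21 in low glucose. Between mean TPM and difference, Spearman rho was -0.083 over the members and -0.23 over all genes compared.

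Among the large subunit genes, 43 of 48 were lower in low glucose, with a median difference of -0.29. The lowest was MRPL50 (hg19 chromosome 9, 104152249 to 104160919), a mitochondria-specific protein of the subunit, at 130.3 TPM with high and 72.5 TPM with low glucose (difference -0.84). Its neighbour by number, MRPL49 (chromosome 11, 64889655 to 64894841), also mitochondria-specific, stood at 44.7 and 27.2 TPM (-0.70). The interval of MRPL49 overlaps those of FAU and SYVN1, so reads at its ends may be shared with them. MRPL28 (chromosome 16, 417384 to 420569), which has a bacterial counterpart, stood at 134 and 85.2 TPM (-0.64). These 3 genes had the largest negative differences of the family.

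The stalk of the large subunit is the landing site of the translation factors, and its genes differed in direction. MRPL12 (chromosome 17, 79670400 to 79674556), the mobile stalk protein that is also reported to bind the mitochondrial RNA polymerase, stood at 119 TPM with high and 76.9 TPM with low glucose (-0.62). MRPL11, at the stalk base, had a difference of -0.30. MRPL10, which anchors MRPL12 to the ribosome, stood at 64.1 and 69.0 TPM and was slightly higher (0.10). A separate stalk is formed by MRPL1, which helps spent tRNA leave the ribosome. It stood at 43.5 and 48.2 TPM (0.14), the second highest difference of the large subunit.

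Proteins that reach toward the peptidyl transferase centre, where peptide bonds form, were lower in 3 of 4 cases. MRPL27 (chromosome 17, 48445228 to 48450562) stood at 99.5 and 65.8 TPM (-0.59) and MRPL16 at 126 and 86.9 TPM (-0.53). MRPL3, mutated in some inherited defects of oxidative phosphorylation, stood at 144 and 106 TPM (-0.43). The exception of these 4 was MRPL2, at 49.1 and 51.2 TPM (0.060).

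The tunnel exit, through which the new chain leaves, is lined by 5 proteins with bacterial counterparts and faces the membrane through MRPL45. MRPL17 (chromosome 11, 6701616 to 6704632) stood at 64.2 and 41.6 TPM (-0.61). MRPL22 (32.5 and 23.6 TPM), MRPL23 (112 and 90.4 TPM) and MRPL47 (132 and 110.2 TPM) were also lower, with differences of -0.45, -0.30 and -0.26. MRPL45, which holds the ribosome at the inner membrane, stood at 71.8 and 60.3 TPM (-0.25). MRPL24 (chromosome 1, 156707094 to 156710923) went the other way, at 132 TPM with high and 156 TPM with low glucose (0.23), the highest difference of the large subunit. So 5 of these 6 genes were lower, with a median of -0.28.

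The central protuberance, the crown of the large subunit facing the small one, contains several mitochondria-specific proteins. The 4 assigned to it here were all lower. Many other genes of the ribosome, MRPL52 and ICT1 among them, were assigned no site, so the 4 need not be all of its proteins. MRPL48 stood at 87.4 and 63.4 TPM (-0.46) and MRPL46 at 74.5 and 60.6 TPM (-0.29). MRPL38 (73.0 and 61.9 TPM, -0.23) and MRPL40 (112 and 97.4 TPM, -0.20) differed less. Elsewhere in the subunit, MRPL44, a relative of the double-stranded RNA nuclease RNase III, stood at 51.9 and 39.6 TPM (-0.38). MRPL41, a mitochondria-specific protein, stood at 236 and 190.0 TPM (-0.31). MRPL13 (chromosome 8, 121408083 to 121457647), shared with bacteria, stood at 154 and 101 TPM (-0.60), the sixth lowest of the family. MRPL21, also shared with bacteria and the third most abundant member by mean TPM, stood at 221 and 232 TPM (0.069). Finally MRPL57, one of the least abundant at 37.8 and 31.7 TPM, had a difference of -0.25.

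The remaining large subunit genes filled the range between these. MRPL20 (142 and 104 TPM), MRPL35 (48.4 and 36.1 TPM) and MRPL53 (62.3 and 47.4 TPM) had differences between -0.45 and -0.39. MRPL30, MRPL42, MRPL34 and MRPL54 lay close together, between -0.31 and -0.28. Another cluster, MRPL9, MRPL43, MRPL33, MRPL39 and MRPL18, lay between -0.25 and -0.20. MRPL15 (-0.19), MRPL14 (-0.16) and MRPL4 (-0.16) were nearer to level. MRPL55 (-0.090) and MRPL37 (-0.051) came next. MRPL32 (105 and 104 TPM), MRPL36 (61.9 and 61.5 TPM) and MRPL52 (101 and 100.5 TPM) were at the same level in both media, with differences of -0.014, -0.0087 and -0.0084.

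Of the small subunit genes, 26 of 29 were lower in low glucose, with a median of -0.23. MRPS26 (chromosome 20, 3026675 to 3028896), a mitochondria-specific protein, was the only one past 1.5-fold, at 173 TPM with high and 114 TPM with low glucose (-0.60). MRPS34, mutated in a form of Leigh syndrome, a mitochondrial brain disease, stood at 199.98 and 140.1 TPM (-0.51) and was the most abundant small subunit gene. MRPS28 stood at 89.5 and 63.5 TPM (-0.49). The next most abundant by mean TPM, MRPS35, stood at 168 and 139 TPM (-0.27), and the least abundant, MRPS14, at 21.9 and 18.5 TPM (-0.23).

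MRPS12, at the decoding site where codon and anticodon are matched, stood at 83.8 TPM with high and 63.9 TPM with low glucose (-0.39). In the head of the small subunit, MRPS7, an early-binding protein in assembly, stood at 112 and 76.7 TPM (-0.54), while MRPS10 (52.0 and 50.1 TPM, -0.053) and MRPS24 (141 and 136 TPM, -0.054) were nearly level. The interval of MRPS24 overlaps a read-through entry, URGCP-MRPS24, so its value is uncertain. MRPS9 stood at 73.3 and 62.8 TPM (-0.22). On the platform, MRPS6 (87.2 and 58.2 TPM, -0.57) and MRPS11 (44.1 and 31.3 TPM, -0.48) were lower and MRPS18C (50.9 and 48.8 TPM, -0.062) was close to level. Head and platform thus each held both genes well below 0 and genes near it.

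MRPS16 and MRPS22, in which mutations cause severe respiratory chain deficiency, differed in size: MRPS16 stood at 70.2 and 56.0 TPM (-0.32) and MRPS22 at 69.8 and 67.2 TPM (-0.053, or 0.052 with like-level genes subtracted). MRPS27, which carries RNA-binding pentatricopeptide repeats, stood at 52.9 and 45.1 TPM (-0.23). MRPS31 stood at 38.2 and 31.1 TPM (-0.29). A copy of this gene listed as the pseudogene MRPS31P5 stood at 7.03 and 12.4 TPM, and reads of such near copies may be divided between them. With both summed, the values were 45.2 and 43.6 TPM and the difference -0.054. For MRPL45 and MRPL42, adding the listed copies MRPL45P2 and MRPL42P5 gave differences of -0.20 and -0.28, close to those of the genes alone.

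The highest difference of the family was that of MRPS25 (chromosome 3, 15090019 to 15106816), a mitochondria-specific protein, at 54.1 TPM with high and 65.3 TPM with low glucose (0.27). Its interval overlaps that of NR2C2. MRPS5, a protein of the messenger RNA entrance, stood at 101 and 107 TPM (0.088). MRPS36, named as a ribosomal protein but since placed in the 2-oxoglutarate dehydrogenase complex of the tricarboxylic acid cycle, stood at 53.7 and 59.1 TPM (0.14). These were the 3 small subunit symbols above 0. The 3 MRPS18 paralogs sit in the same ribosome at different places. MRPS18A stood at 57.7 and 53.4 TPM (-0.11) and MRPS18B at 85.2 and 85.1 TPM (-0.0018), the latter at 0.0036 with upper-quartile scaling and 0.10 with like-level genes subtracted. The other small subunit genes lay between -0.45 (MRPS23, 86.0 and 62.8 TPM) and -0.10 (MRPS21, 66.0 and 61.3 TPM), with MRPS15, MRPS2, MRPS17 and MRPS33 in between at -0.33, -0.30, -0.28 and -0.23.

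**Figure D2:**
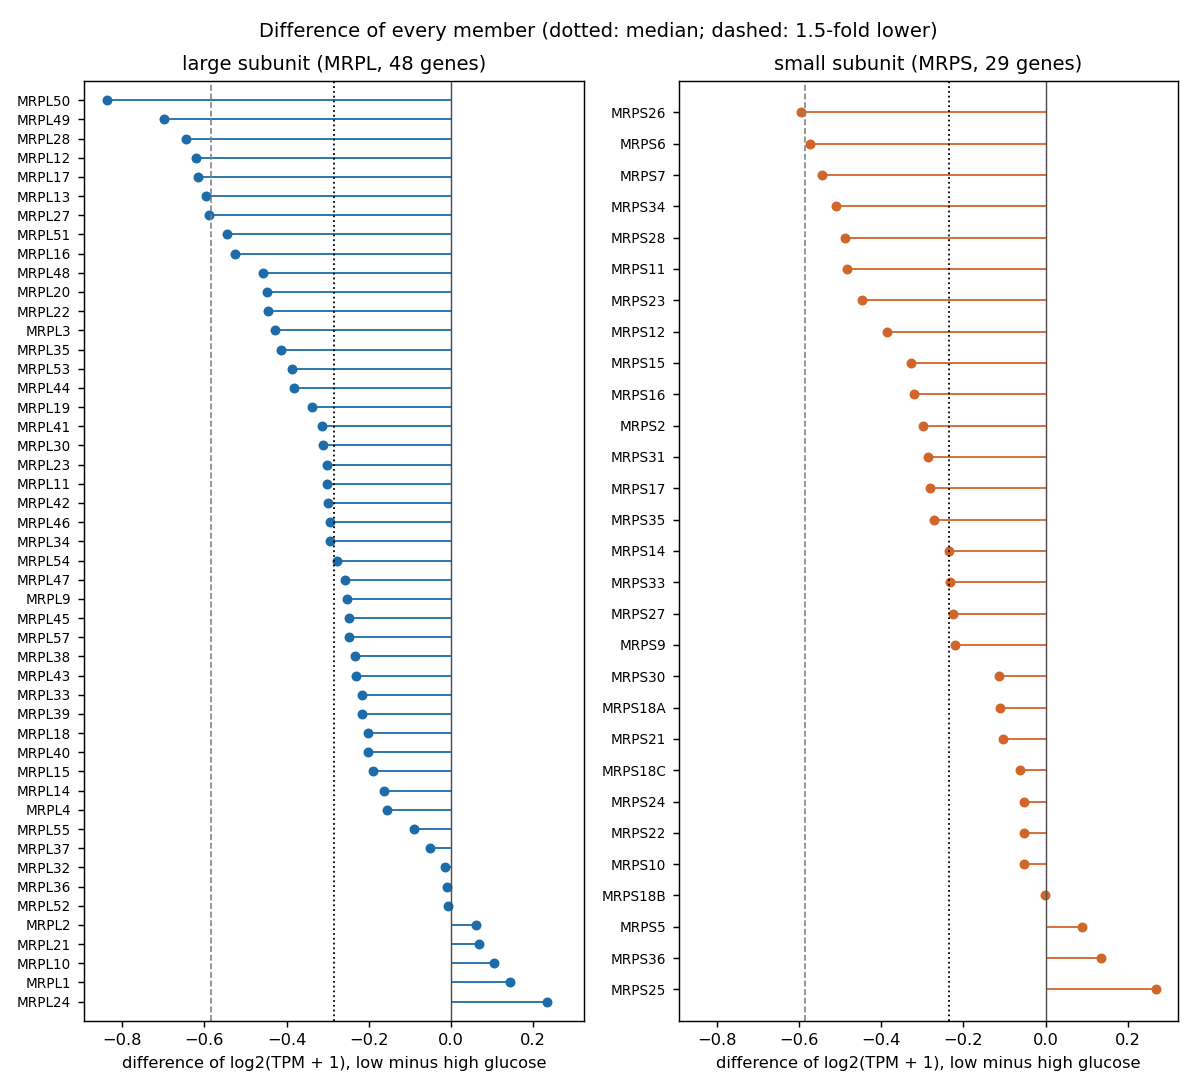
Difference in log2(TPM + 1) between low and high glucose (negative where lower in low glucose) of each large subunit gene (left) and small subunit gene (right), sorted, 1 point per gene, with the median of each subunit dotted and the 1.5-fold line dashed. The subunits cover much the same range, with medians of -0.29 and -0.23; 7 large and 1 small subunit gene lie past the dashed line.

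Large and small subunit genes differed little from each other. The medians were -0.29 over 48 MRPL and -0.23 over 29 MRPS genes, -0.051 apart (MRPL minus MRPS), with SDs across genes of 0.23 and 0.22. The range of the small subunit held 42 of the 48 large subunit values. Summed TPM was 5200.0 and 4257 for MRPL (ratio 0.819) and 2562 and 2139 for MRPS (ratio 0.835), so the sum of MRPL over that of MRPS was 2.03 in high and 1.99 in low glucose. Symbol and place disagree for some members: MRPS30 (76.1 and 70.3 TPM, -0.11) and MRPS18A are built into the large subunit. With both moved there and MRPS36 left out, the medians were -0.27 for 50 large and -0.28 for 26 small subunit genes, so the direction of the small gap turned. Genes are not replicates of a medium, so no test of the subunits against each other was possible.

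Conserved and mitochondria-specific proteins had like medians. The 46 genes with a bacterial counterpart had a median of -0.29, with 40 below 0, and the 30 mitochondria-specific genes one of -0.26, with 29 below 0. Within the large subunit all 18 mitochondria-specific genes were below 0, as were 25 of the 30 conserved ones. The 5 large subunit genes above 0 (MRPL2, MRPL21, MRPL10, MRPL1 and MRPL24) were thus all of the conserved class. With like-level genes subtracted, 16 of the 18 and 22 of the 30 were below 0, so both classes then held genes above it. The 10 members with the largest differences in TPM, led by MRPL51, MRPL11 and MRPS34, were all lower and carried 44.3% of the summed difference of -1366 TPM.

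The promoter sequences of the members were also described. Whether they bear on the differences was not tested. RefSeq windows on GRCh38.p14, from 250 bases before to 50 bases after the annotated start, were at hand for 68 of the 77 genes (84 windows, since some genes have several starts). Searched on both strands were CCGGAAG, a core of ETS family sites including those of GABPA, GCGCNTGCG for NRF1, and ATGGCGGC for YY1; these factors are known for binding near genes of mitochondrial function, and overlapping matches were each counted. The ETS core was in 29 of the 68 genes (42.6%), against 21.8% of 9850 other compared genes with a window and 12.2% of all 27305 genes in the table. The YY1 core was in 18 (26.5%), against 7.03% and 3.67%. In all of these but MRPL36 and MRPL47, a YY1 match began after the annotated start, from 9 (MRPL38) to 38 bases (MRPL22) beyond it. Most of these matches thus lie in the transcribed part of the window. Their positions in the comparison genes were not examined. The NRF1 letters were in 12 (17.6%), against 16.9% and 9.01%. A gene was counted if any of its windows matched. The comparison genes were not matched to the members in abundance or in number of windows. A match is a description of the sequence and not a bound site, and the RefSeq start of a gene can differ from the start of its interval in the authors' files.

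The 150 bases before the start are shown for the most abundant member, MRPL51 (chr12:6493263-6493412, minus strand), for the members with the lowest and highest difference of each subunit, MRPL50 (chr9:101398619-101398768, minus strand), MRPL24 (chr1:156741089-156741238, minus strand), MRPS26 (chr20:3045902-3046051, plus strand) and MRPS25 (chr3:15065316-15065465, minus strand), and for MRPL17 (chr11:6683341-6683490, minus strand), which holds the NRF1 letters at 2 places. Each runs 5′ to 3′ toward the gene, and capitals mark matches to the 3 motifs on either strand.
MRPL51: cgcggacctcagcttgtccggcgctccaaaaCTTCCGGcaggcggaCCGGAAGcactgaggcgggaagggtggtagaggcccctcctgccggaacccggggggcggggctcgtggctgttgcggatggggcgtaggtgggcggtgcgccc
MRPL50: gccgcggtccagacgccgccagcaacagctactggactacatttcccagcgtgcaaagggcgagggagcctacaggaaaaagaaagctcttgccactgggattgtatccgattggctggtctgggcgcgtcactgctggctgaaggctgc
MRPL17: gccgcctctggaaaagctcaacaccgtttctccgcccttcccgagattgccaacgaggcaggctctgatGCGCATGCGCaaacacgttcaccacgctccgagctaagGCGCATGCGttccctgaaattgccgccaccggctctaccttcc
MRPL24: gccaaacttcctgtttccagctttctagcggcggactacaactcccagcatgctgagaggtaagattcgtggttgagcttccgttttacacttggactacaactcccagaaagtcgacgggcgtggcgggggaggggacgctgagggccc
MRPS26: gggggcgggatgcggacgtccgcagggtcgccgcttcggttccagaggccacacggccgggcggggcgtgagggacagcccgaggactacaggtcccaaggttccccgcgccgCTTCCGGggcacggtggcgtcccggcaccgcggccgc
MRPS25: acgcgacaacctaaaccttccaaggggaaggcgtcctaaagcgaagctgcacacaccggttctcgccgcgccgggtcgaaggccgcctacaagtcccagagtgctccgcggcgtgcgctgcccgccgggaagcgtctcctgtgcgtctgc

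MRPL51, at 428 and 293 TPM, carries the ETS core at 2 places in opposite orientation, and MRPS26 carries it once. MRPL17 carries overlapping NRF1 matches on both strands at its first place. In MRPL50 the only match is a YY1 core that starts 26 bases after the annotated start, outside the stretch shown. MRPL24 and MRPS25, the genes with the highest differences of their subunits, hold none of the 3 motifs in the whole window. The same was true of 20 of the 68 members with a window, these 2 included. Members with and without each motif had medians close to each other. The median difference was -0.29 with the ETS core and -0.25 without it, -0.23 and -0.30 with and without the YY1 core, and -0.25 and -0.28 with and without the NRF1 letters. Below 0 were all 29 genes with the ETS core and 35 of the 39 without it, all 12 with the NRF1 letters and 52 of the 56 without them, and 17 of the 18 with the YY1 core and 47 of the 50 without it.

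Some members lie head to head with another gene, their starts a short distance apart on opposite strands. A gene of this kind within 1000 bases was found for 27 of the 77 members. Strand was taken from GENCODE release 29 and position from the authors' hg19 intervals. The share of all compared genes with such a neighbour was not counted. In 1 pair both genes are members: MRPL46 and MRPS11 start 51 bases apart by those intervals, stood at 74.5 and 60.6 TPM and at 44.1 and 31.3 TPM, and were both lower. The other 25 neighbours had a median difference of 0.03 with 12 below 0, while the 27 members in such pairs had a median of -0.26, close to the -0.28 of the 50 members without one. Across these 25 pairs Spearman rho of the 2 differences was -0.017, a description over pairs from the same libraries.

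Single pairs, chosen after their values were seen, show members that went with or apart from the gene beside them. MRPL49 was lower, while FAU, which encodes a cytosolic ribosomal protein and whose interval overlaps it by a few bases, stood at 650.0 and 825 TPM (0.34). MRPL30 stood at 65.8 and 52.8 TPM and its neighbour MITD1, a protein of cell division, at 77.8 and 109 TPM (0.48). MRPS12 and SARS2, the mitochondrial seryl-tRNA synthetase, were both lower, SARS2 at 35.3 and 32.5 TPM (-0.11). The intervals of MRPS12 and SARS2 overlap, so reads may be shared between them. MRPL51 and NCAPD2, a condensin subunit of mitotic chromosomes, were both lower, NCAPD2 at 134 and 79.8 TPM (-0.75). In the opposite sense, MRPS18B was level while PPP1R10 stood at 37.3 and 20.8 TPM (-0.82).

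**Figure D3:**
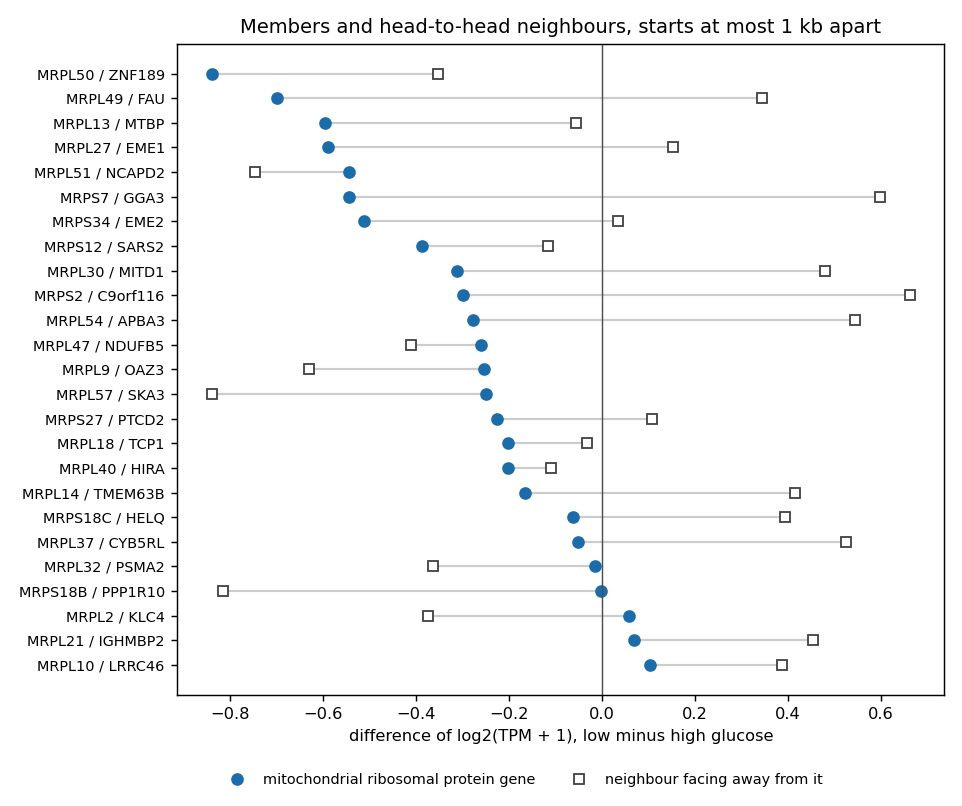
Difference in log2(TPM + 1) between low and high glucose (negative where lower in low glucose) of 25 members (filled circles) and of the gene that starts head to head with each at most 1000 bases away (open squares), 1 row per pair. The members lie mostly to the left of 0, while the neighbours lie on both sides, 12 of 25 below 0.

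Other genes of mitochondrial translation and its surroundings were set beside the members as lists, by counts and medians only; CHCHD1, PTCD3, ICT1, MRRF, TSFM, MTG1, METTL17, LONP1, RPL21 and RPS27L were named after their values were seen. Of the 7 mitoribosomal proteins with other symbols, 6 have a symbol outside the MRPL and MRPS pattern, since MRPL57 is among the members. Of these 6, 3 were below 0 and the median was -0.12, or 0.0021 with like-level genes subtracted. GADD45GIP1, at the polypeptide exit region and also known as a cell cycle regulator, stood at 268 TPM with high and 188 TPM with low glucose (-0.51). CHCHD1 (73.3 and 52.8 TPM, -0.47) and AURKAIP1 (187 and 154 TPM, -0.28) were lower as well. DAP3, a GTP-binding protein of the small subunit (155 and 159 TPM, 0.035), PTCD3 (46.7 and 49.1 TPM, 0.072) and the release factor relative ICT1 (45.1 and 50.4 TPM, 0.16) were slightly higher.

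The 16 mitochondrial translation factors had a median of 0.01 (between -0.046 and 0.038 under the alternatives) with 8 below 0, and 1 was past 1.5-fold: the ribosome recycling factor MRRF, higher at 29.1 TPM with high and 44.3 TPM with low glucose (0.59). The elongation factor TUFM, which delivers tRNA to the ribosome, stood at 278 and 287 TPM (0.047), and its exchange factor TSFM at 48.5 and 32.4 TPM (-0.57). SLIRP, an RNA stability protein, stood at 322 and 296 TPM (-0.12), and OXA1L, which inserts new chains into the inner membrane, at 154 and 190.0 TPM (0.30). Assembly and ribosomal RNA modification factors (25 genes) had a median of -0.009 (between -0.063 and 0.018 under the alternatives) with 13 below 0; NGRN, which acts on the large ribosomal RNA, stood at 224 and 181 TPM (-0.31). Past 1.5-fold higher in that list were MTG1, a GTPase of the assembling large subunit, at 46.9 and 72.0 TPM (0.61), and METTL17, a factor of small subunit assembly, at 73.3 and 115 TPM (0.65). The proteases AFG3L2 (116 and 124 TPM) and SPG7 (139 and 174 TPM), which process the precursor of MRPL32, were the next most abundant of that list by mean TPM.

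Mitochondrial transcription and RNA processing genes (12) had a median of -0.19 with 8 below 0, and with like-level genes subtracted one of -0.20, below the -0.17 of the members. POLRMT, the mitochondrial RNA polymerase, was level at 89.1 and 90.9 TPM, and the tRNA-end nuclease ELAC2 stood at 79.6 and 62.8 TPM (-0.34). HSD17B10, a subunit of the mitochondrial RNase P, stood at 151 and 142 TPM. The 13 mitochondrial proteases and chaperones had a median of -0.10 (between -0.16 and -0.056 under the alternatives) with 9 below 0, led in level by HSPD1 (883 and 847 TPM), HSPE1 (679.9 and 451 TPM, -0.59) and HSPA9 (308 and 356 TPM). HSPE1 was the 1 gene of that list past 1.5-fold lower, and the protease LONP1 (122 and 192 TPM, 0.65) the 1 past it higher.

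Of the regulators of mitochondrial biogenesis, 7 of 10 were above 0, with 2 past 1.5-fold higher, and the median was 0.24, or 0.14 over those with a mean of at least 10 TPM. MYC, a growth-promoting transcription factor, stood at 105 TPM with high and 198 TPM with low glucose (0.91), and the coactivator PPRC1 at 36.4 and 46.5 TPM (0.35). YY1 stood at 75.9 and 61.2 TPM (-0.31). GABPA, NRF1 and PPARGC1A were also looked up, their values being already known: GABPA stood at 19.0 and 13.9 TPM (-0.42), NRF1 at 11.1 and 10.2 TPM (-0.12) and the coactivator PPARGC1A at 1.71 and 4.05 TPM (0.90), the last at very low levels. Cytosolic ribosomal proteins, the counterpart outside the organelle, had a median of -0.017 over 82 genes with 43 below 0, and a summed TPM of 137341 in high and 138918 in low glucose. RPL41 (6996 and 8194 TPM), RPS2 (3742 and 3446 TPM) and RPS27 (3283 and 3506 TPM) were the most abundant, and RPL21 (399.8 and 208 TPM) and RPS27L (269 and 146 TPM) were past 1.5-fold lower. With genes of like level subtracted, the cytosolic list's median was 0.12 and that of the members -0.17. No list was tested against another.

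**Figure D4:**
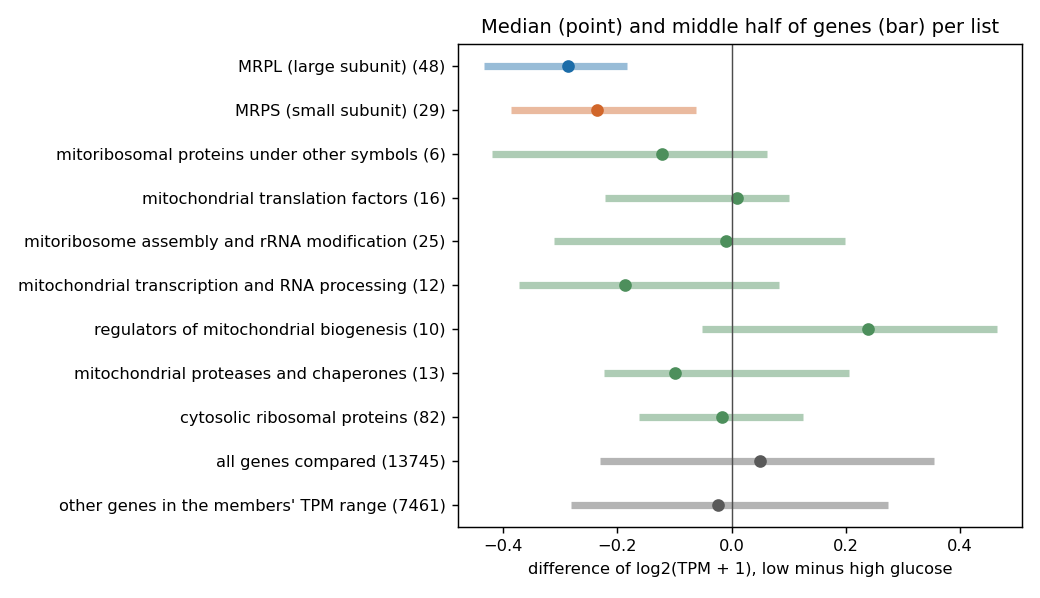
Median (point) and interquartile range (bar) of the difference in log2(TPM + 1) between low and high glucose, for the MRPL and MRPS genes, 7 other lists, all genes compared and the other genes in the members' range of mean TPM, with the number of genes in brackets. The medians of both subunits lie at -0.29 and -0.23, and that of mitochondrial transcription and RNA processing at -0.19.

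The libraries listed 17994 entries above 0 in high and 18036 in low glucose. The 8 hepatocyte and hepatoma markers examined were all present, between 211 and 20859 TPM in high and between 154 and 16441 TPM in low glucose. Endothelial markers (3) were at most 1.35 TPM, leukocyte markers summed to 24.4 and 42.1 TPM, mostly CD68, a lysosomal protein, and fibroblast or stellate markers summed to 9.36 and 13.1 TPM. Of the bile duct markers, SOX9 stood at 99.3 and 66.5 TPM and KRT7 at 0.72 and 0 TPM. No entry lay on the mitochondrial chromosome, so the messenger RNAs that this ribosome translates, and its own RNAs, were not compared.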

How the data were processed

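RNA from 2 libraries of Huh7 cells, 1 per medium, was sequenced. Their strandedness, aligner and annotation were not given in the sources used here, and the authors deposited TPM per gene symbol, named so per the file headers, with an hg19 interval for each entry. Adapter trimming with cutadapt and RSEM 1.2.21, which divides ambiguous reads between genes, are named per the submitters' processing notes. TPM carries no read number, so depth and counting error are unknown.

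The difference of log2(TPM + 1) was computed for genes of at least 1 TPM mean in the 2 libraries (13745 genes), in Python 3.11.15 with pandas 2.3.3. The computation was tested on simulated data. The differences put in were larger in size than those of all members but MRPL50, so recovery of smaller ones was not checked. With 1 library per group no test was made. The members and lists were chosen with earlier results of these data known. Named members were the 5 lowest and 5 highest differences and the 3 most and least abundant per subunit, those past 1.5-fold, and a set chosen by role (43 genes); the other 34 complete the family. In other lists the 3 most abundant and any past 2-fold were named. Promoter windows came from RefSeq (GRCh38.p14) and strand from GENCODE release 29, matched by symbol. Entries spanning over 2500000 bases were left out of overlaps and neighbours. Alternatives were pseudocounts, scalings, filters, level centring, overlap and subunit assignment; summing pseudogene copies was added after the data were seen.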

Additional observations from a re-analysis of the deposited data

How the results depend on the processing

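The members' median difference stayed below 0 under the 10 alternatives that apply to it, between -0.33 and -0.17, and the number of members below 0 was between 65 and 69 of 77 under the scalings, pseudocounts and filters, and 61 with like-level genes subtracted. Restricted to the 61 members whose interval no other entry overlaps, 54 were below 0. The summed TPM ratio ran from 0.791 to 0.841. Subtracting the median of genes of like level gave -0.17 for all members and -0.17 for MRPL genes (-0.1738), and -0.16 for MRPS genes; the cytosolic ribosomal proteins moved to 0.12 and the mitoribosomal proteins under other symbols to 0.0021. The 8 members past 1.5-fold lower became 4 with a pseudocount of 5, 5 with the total taken without the 50 most abundant genes and 2 with like-level genes subtracted, and at most 11 under any alternative; 0 members were past 1.5-fold higher under each. Past 2-fold there were 0, against 26 at a ratio of 5 to 4 (18.3% of all genes lower, 27.1% higher) and 8 at 1.5-fold, all lower. The gap of MRPL and MRPS medians, -0.051, ran from -0.053 to 0.009 and turned sign when subunits were assigned by place. Medians of translation factors and of assembly factors, both near 0, changed sign under 2 alternatives each, and that of cytosolic ribosomal proteins also became positive without the 50 most abundant genes (0.012). The causes were not tested. Depth is unknown, so no limit from counting can be set. No paired analysis was possible because each medium has 1 library, and for the same reason no replicate could be left out.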

Other observations

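The members lie on 21 chromosomes, and the chromosomes that hold at least 5 of them differed in how far their members were from level, a grouping made after the values were seen. The 7 members on chromosome 11 had a median difference of -0.46 and the 7 on chromosome 17 one of -0.45. On chromosome 6, the 6 members MRPL2, MRPL14, MRPL18, MRPS10, MRPS18A and MRPS18B lay between -0.20 and 0.06, with a median of -0.082. The 8 members on chromosome 1 had a median of -0.17, the 8 on chromosome 2 one of -0.32 and the 5 on chromosome 5 one of -0.11. With like-level genes subtracted, these medians were -0.35 for chromosome 11, -0.34 for chromosome 17, -0.27 for chromosome 2, -0.086 for chromosome 1, -0.019 for chromosome 6 and -0.0084 for chromosome 5. No test of these groups was made, and the other compared genes of each chromosome were not set beside them.

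The 3 entries named as pseudogene copies of a member were each higher in low glucose while the member was lower. MRPS31P5 stood at 7.03 and 12.4 TPM, MRPL45P2 at 5.36 and 6.56 TPM and MRPL42P5 at 0.52 and 1.15 TPM, with differences of 0.74, 0.25 and 0.50. MRPL42P5 has a mean below 1 TPM, so it was not among the genes compared. How reads were divided between copy and member was not tested.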
